A study of Ovis aries with 2 samples.

Results

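DCN encodes decorin, a small proteoglycan that connective tissue fibroblasts secrete and that binds collagen fibrils. DCN-positive stromal fibroblasts of the sheep testis were taken from the ZEA library by a count rule. A cell barcode was a member if it had at least 500 unique molecular identifiers (UMIs, 1 per captured RNA molecule), at least 3 DCN UMIs, and 0 UMIs of the pericyte gene KCNJ8, of the endothelial genes VWF and CDH5 and of the macrophage genes C1QA, C1QB and C1QC. This left 300 of 8809 ZEA barcodes, out of 15839 in both libraries. Levels below are CPM, the UMIs of a gene summed over a set of barcodes and scaled to a common total of 1000000, and intervals are exact 95% intervals that cover counting error only.

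The series holds 1 library labelled ZEA0.75 and 1 labelled control, both from testis at 8 months of age and both made with a droplet-based 3' kit. ZEA is the usual abbreviation of zearalenone, an oestrogenic mycotoxin of Fusarium moulds. The labels do not spell it out, give no unit for 0.75 and do not say how the exposure was done or how many animals gave tissue. With 1 library per group no difference between groups could be tested, and the library, the animal and the group cannot be told apart.

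In the testis, fibroblasts lie in the interstitium between the seminiferous tubules, beside Leydig cells, vessels and macrophages, and outside the contractile peritubular myoid cells. Fibroblasts build the interstitial matrix from fibrillar collagens, proteoglycans and elastic fibre proteins, and they secrete growth factor binding proteins, protease inhibitors and complement components. Pericytes and smooth muscle share part of that matrix programme but add contractile and vessel-associated genes.

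The ZEA library held 22148456 UMIs and the control library 53044981 UMIs. The 300 members held 509394 UMIs, with 500 UMIs in the shallowest, a median of 1450 and 24279 in the deepest, which gave 4.77% of the sum. Other ZEA barcodes had a median of 1400 UMIs. Mitochondrially encoded genes took a median of 2.61% of UMIs in members and 0.703% in other ZEA barcodes. Genes of the spermatid lists took a median of 0.561% in members (0 to 3.09%) and 1.02% in other ZEA barcodes. The libraries shared 15 barcode sequences, none of them a member in either library. Doublets were not called.

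DCN chose the members, so its level is a description. Members had 3 DCN UMIs at the lowest, 9 at the median and 96 at the highest. They held 3589 of the 4577 DCN UMIs of the ZEA library, which is 78.4%. Barcodes rich in spermatid genes, which should lack decorin, had a DCN UMI in 77 of 2610 (2.95%, at a median depth of 859 UMIs). Members were left out of that set, so by its definition it could not hold a barcode with 3 or more. Of 380 ZEA barcodes with at least 3 DCN UMIs, 80 were left out, 46 with a KCNJ8 UMI, 39 with a VWF or CDH5 UMI and 4 with a C1Q UMI, some for more than 1 reason. Those 80 had a COL1A1 level of 667 CPM, against 2990 CPM in members.

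The label was checked with 5 fibroblast genes that the rule did not use, the collagen genes COL1A1, COL1A2 and COL3A1, the growth factor receptor gene PDGFRA and the proteoglycan gene LUM. At least 2 of them were detected in 257 of 300 members (85.7%), against 36 of 91 KCNJ8-positive barcodes (39.6%), 48 of the 80 DCN-positive barcodes left out, and 313 of 8509 other ZEA barcodes (3.68%). No UMI of any of them was found in 16 members, and 4 or more of the genes were found in 103. DPT, often used as a fibroblast marker, had 0 UMIs in both members and other ZEA barcodes. FBLN1 and MGP, also on the fibroblast marker list, were not part of the check. In clusters 0 and 1 of the members, described below, FBLN1 was sparse, with 1 UMI in the 46 barcodes of cluster 0 and 7 UMIs in the 113 of cluster 1. Its counts in the remaining members and in other ZEA barcodes are not given, so nothing is said of FBLN1 in members as a whole. MGP stood higher in KCNJ8-positive barcodes than in members. Most members thus carried fibroblast genes beyond DCN, but not every one did.

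The threshold of 3 cut through a gradient. At least 2 of the 5 genes were found in 65.4% of the 52 members with exactly 3 DCN UMIs, and in 57.4% of the 61 barcodes just outside the rule with 2. The share was 20.7% of 193 barcodes at 1 DCN UMI and 94.96% of 139 barcodes at 10 or more. COL1A1 stood at 1850 CPM in members with 3 DCN UMIs and at 987 CPM in barcodes with 2. MFAP5, a microfibril-associated protein of elastic fibres, was detected in 0.755, 2.59, 16.4, 19.2, 39.4 and 79.9% of barcodes with 0, 1, 2, 3, 4 to 9 and 10 or more DCN UMIs. The MFAP5 share kept climbing within the members, whereas the contractile gene ACTA2 was detected in 51.9% of members with 3 DCN UMIs and 35.3% with 10 or more. Median depth was 1200.5 UMIs at 3 DCN UMIs and 1598 at 10 or more, and its part in these shares was not tested.

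**Figure D1:**
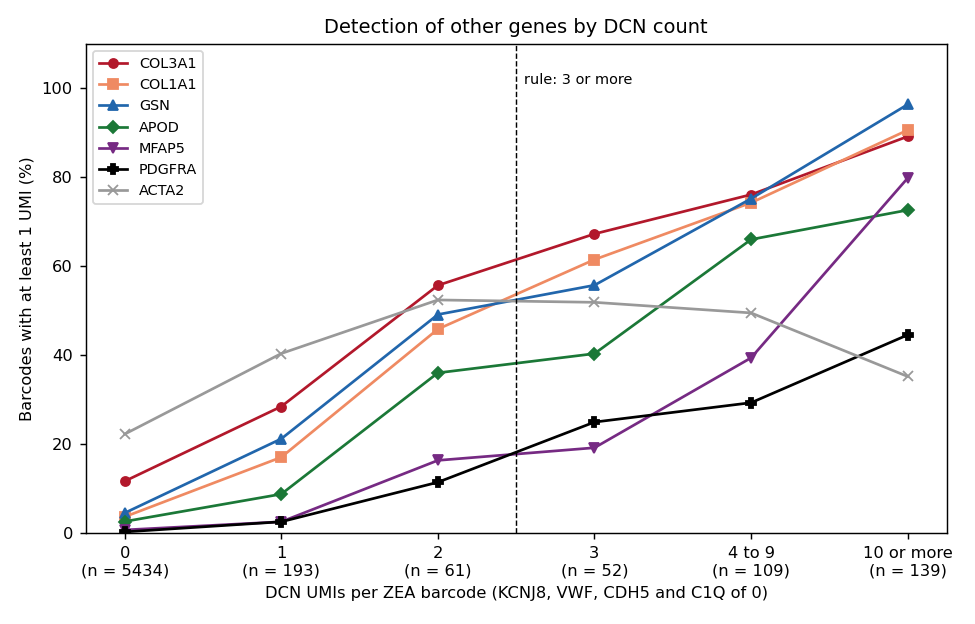
Share of ZEA barcodes (y axis, percent) with at least 1 UMI of 7 genes, by the number of DCN UMIs per barcode (x axis, number of barcodes in brackets), among barcodes without UMIs of KCNJ8, VWF, CDH5 and C1Q. The dashed line marks the rule. MFAP5 reached 79.9% of barcodes with 10 or more DCN UMIs, whereas ACTA2 stood at 35.3% there.

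Members expressed collagen, proteoglycan and elastic fibre genes at many times the level of other ZEA barcodes, and lacked the genes of vessels. Of 5810 genes that entered the comparison, 740 were at least 2-fold higher (12.7%) and 502 at least 2-fold lower (8.64%), with a median log2 ratio of -0.16. Scaled by the median of gene ratios, the counts were 887 higher and 341 lower. The rule picked the members from these same barcodes, so the counts are a description and nothing is read from them. Without the 72 members of clusters 0 and 3, described below, 926 genes were higher and 1260 lower. The number of genes that entered is not given for that setting, so these counts are not shares of 5810.

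Fibrillar collagen genes led the matrix. COL1A1, a chain of type I collagen, had 0, 2 and 75 UMIs per member at the lowest, median and highest, and 0, 0 and 32 in other ZEA barcodes. Its level was 2990 CPM in members and 35.6 CPM in other ZEA barcodes, a log2 ratio of 6.39 (6.27 to 6.52). The other type I chain, COL1A2, stood at 2931 and 32.1 CPM, and COL3A1, the chain of type III collagen, at 3494 and 81.2 CPM. Each of these 3 genes was detected in 239 to 242 of the 300 members. Of 10 fibrillar and fibril-associated collagen genes that entered, 9 were at least 2-fold higher and none lower, with a median log2 ratio of 4.96. COL15A1, a collagen found at basement membranes, was the exception at -0.85.

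Proteoglycans of the decorin family were high as a group. All 6 family members that entered apart from DCN were at least 2-fold higher in members, with a median log2 ratio of 4.31. LUM, lumican, was detected in 62 of 300 members, at 173 CPM against 1.29 CPM in other ZEA barcodes. OMD, osteomodulin, stood at 161 CPM in members and 3.19 CPM in the rest, and BGN, biglycan, at 277 and 12.7 CPM. OGN, osteoglycin, stood at 430 and 23.8 CPM. In the RefSeq assembly ARS-UI_Ramb_v3.0 of the sheep, LUM lies next to DCN on chromosome 3, and ECM2, ASPN, OMD and OGN follow each other on chromosome 2. No source names the genome build of the counts, so no coordinates are given.

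Genes of elastic fibres and matrix glycoproteins came next, with 9 of 10 at least 2-fold higher and a median log2 ratio of 3.80. MFAP5 had 0, 1 and 20 UMIs per member at the lowest, median and highest, and 0, 0 and 6 in other ZEA barcodes. It stood at 1088 CPM in members, against 7.53 CPM in the rest and 5.38 CPM in spermatid-rich barcodes, a log2 ratio to the rest of 7.17 (6.92 to 7.43). MFAP5 was thus detected in 164 of 300 members. EFEMP2, an elastic fibre assembly protein, had a log2 ratio of 4.35, SPON1, spondin 1, of 4.15 and MFAP4, a microfibril-associated glycoprotein, of 4.06. Summed over the list, members had 10514 CPM, less than the 19013 CPM of KCNJ8-positive and the 14292 CPM of ACTA2-high barcodes. MGP, described below, gave 6726 CPM of the members' sum and most of the KCNJ8-positive sum. By gene, 4 of 7 were at least 2-fold higher in members than in KCNJ8-positive barcodes and 2 lower, with a median log2 ratio of 2.27. Against ACTA2-high barcodes 3 of 8 were higher and 1 lower, with a median of -0.11. SPARCL1, a matrix glycoprotein, was level at 1111 CPM in members and 1175 CPM in the rest.

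Enzymes that process collagen were higher in 5 of 6 cases, with a median log2 ratio of 2.37. LOX, lysyl oxidase, which crosslinks collagen and elastin, had 43 UMIs in members and a log2 ratio of 5.34 (4.71 to 5.98). PCOLCE, which enhances the cleavage of procollagen, was far more abundant, at 1545 CPM in members and 90.7 CPM in the rest. P4HA2, a subunit of the prolyl hydroxylase of collagen, had a log2 ratio of 2.97.

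Basement membrane genes were mixed. Of 15 that entered, 8 were at least 2-fold higher and none lower, with a median log2 ratio of 1.54. LAMA2, the laminin alpha 2 chain, had a log2 ratio of 3.90, COL4A3 of 3.46 and LAMA1 of 2.81, on 62, 45 and 21 UMIs in members. COL4A1, a main chain of type IV collagen, was among the lowest of the list at 1052 CPM in members and 1502 CPM in the rest. The list summed to 3318 CPM in members, against 6035 in KCNJ8-positive, 5947 in endothelial and 2410 CPM in ACTA2-high barcodes. Against KCNJ8-positive barcodes 1 of 9 genes was higher and 3 lower, with a median log2 ratio of -0.45. Against endothelial barcodes 8 of 17 were higher and 5 lower, and against ACTA2-high barcodes 5 of 13 and 3, with medians of 0.26 and 0.67.

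Proteases and their inhibitors gave 9 genes higher and 2 lower out of 14, with a median log2 ratio of 3.26. SERPINF1, pigment epithelium-derived factor, had the largest ratio of the list at 7.91 (7.11 to 8.81), with 85 UMIs in 25 members and up to 16 in one. It was therefore high in few barcodes rather than spread over the members. ADAM12, a metalloprotease of mesenchymal cells, was found in 72 members at 181 CPM, against 5.08 CPM in the rest. MMP23B, a membrane metalloprotease, stood at 336 CPM in members and 17.7 CPM in the rest. Lower in members were MMP9, a gelatinase, at -1.24, and ADAMTS1 at -1.20.

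All 5 complement genes that entered were at least 2-fold higher in members, with a median log2 ratio of 3.56. C1S and C1R, the serine proteases of the first complement component, stood at 316 and 524 CPM in members, against 7.58 and 15.8 CPM in other ZEA barcodes. SERPING1, the inhibitor of both proteases, stood at 357 CPM in members and 30.3 CPM in the rest. The proteases and their inhibitor were thus high in the same set of barcodes, whereas the C1Q genes were held at 0 by the rule.

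Among growth factors and their binding proteins, 12 of 15 genes were at least 2-fold higher in members and 2 lower, with a median log2 ratio of 2.49. IGFBP6, which binds insulin-like growth factors and prefers IGF2, was the most abundant at 4935 CPM in members and 274 CPM in the rest. It had 0, 6 and 68 UMIs per member at the lowest, median and highest, and 0, 0 and 42 in other ZEA barcodes. VEGFC, a growth factor of lymphatic vessels, had a log2 ratio of 4.79 on 32 UMIs, and INHBA, an activin subunit, 4.06 on 37 UMIs. Platelet-derived growth factor PDGFD was lower in members at -2.78, on 5 UMIs.

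Receptors of stromal signalling showed 8 of 13 genes higher and 1 lower, with a median log2 ratio of 2.01. PDGFRA, the platelet-derived growth factor receptor that marks fibroblasts, was detected in 107 of 300 members. It stood at 322 CPM in members and 3.33 CPM in the rest, a log2 ratio of 6.60 (6.19 to 7.02). EDNRA, an endothelin receptor, had a log2 ratio of 4.32 and PTCH1, the hedgehog receptor, of 4.13, on 39 and 28 UMIs in members. BMPR2, a bone morphogenetic protein receptor, was the lower one at -1.35. The list summed to 1678 CPM in members, against 1584 in KCNJ8-positive, 1222 in endothelial and 1059 CPM in ACTA2-high barcodes. Against KCNJ8-positive barcodes 2 of 4 genes were higher and 1 lower.

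Retinoid genes were a second strong group outside the matrix. Of 6 that entered, 4 were at least 2-fold higher in members, with a median log2 ratio of 3.49. CYP26B1, which breaks down retinoic acid, stood at 559 CPM in members and 7.07 CPM in the rest, a log2 ratio of 6.31 (6.02 to 6.60). It was found in 102 members, with at most 21 UMIs in one. RBP4, the serum retinol carrier, was found in 90 members at 259 CPM, against 1.94 CPM in the rest. ALDH1A1, a retinaldehyde dehydrogenase, stood at 377 CPM in members and 52.6 CPM in the rest. Genes for carrying retinol, making retinoic acid and degrading it were thus among the higher ones, while ALDH1A2 and RDH10 did not pass 2-fold. CYP26B1 was detected in 46.7% of the members with RBP4 and in 28.6% of those without it, with no allowance for depth.

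Lipid carriers and secreted proteins were the most abundant transcripts of the members. APOA1, the main protein of high-density lipoprotein, stood first at 10253 CPM in members and 1200 CPM in the rest. APOE, another lipoprotein component, stood at 8679 and 421 CPM, and MGP, matrix Gla protein, an inhibitor of calcification, at 6726 and 966 CPM. CLEC3B, tetranectin, stood at 5243 and 1811 CPM, and CST3, the protease inhibitor cystatin C, at 5136 and 264 CPM. Other ZEA sets held some of these transcripts too. Endothelial barcodes had 2779 CPM of APOA1 and 4276 CPM of CLEC3B, and KCNJ8-positive barcodes had 11931 CPM of APOE and 16848 CPM of MGP. The rest of the 10 most abundant were DCN, IGFBP6, the glutathione transferase gene GSTM3 (4478 and 1475 CPM), the mitochondrial gene ATP6 (4503 and 1913 CPM) and the ribosomal protein gene RPLP1 (7674 and 6020 CPM).

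Further genes with large ratios had roles outside these groups. APOD, a lipocalin of mesenchymal cells, stood at 1492 CPM in members and 17.8 CPM in the rest, a log2 ratio of 6.39. GSN, the actin-severing protein gelsolin, stood at 2234 and 54.7 CPM, in 245 of 300 members. LRRC17 and FGL2 stood at 424 and 603 CPM in members, against 6.98 and 10.6 CPM in the rest. LGALS3, galectin 3, stood at 601 and 15.2 CPM. GSTA1, an alpha-class glutathione transferase, stood at 450 and 10.95 CPM. The collagens and GSN were found in most members, but GSTA1 was found in 65 of 300 members with up to 23 UMIs in one.

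**Figure D2:**
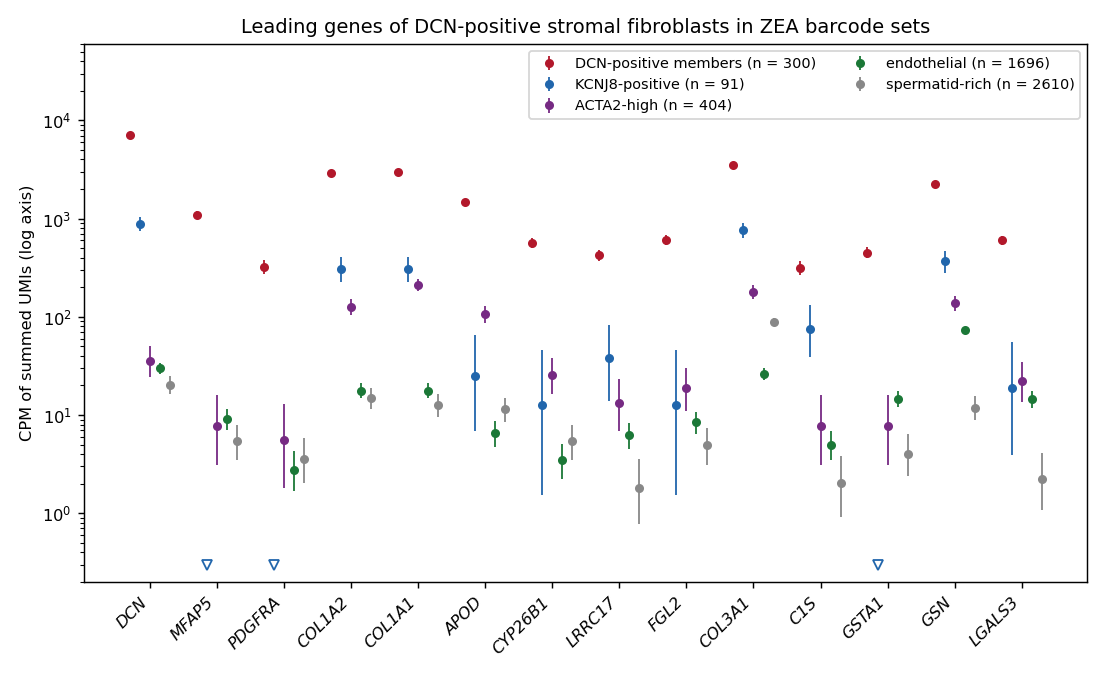
Level of the 14 genes with the highest ratios (x axis) in 5 sets of ZEA barcodes, as CPM of summed UMIs on a log axis (y axis). Points are sums over a set, bars are exact 95% Poisson intervals, and open triangles at the bottom mark sets with 0 UMIs. Members stood highest for every gene, with DCN at 7046 CPM and MFAP5 at 1088 CPM.

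The lowest genes were those of vessels. VWF and CDH5 were held at 0 by the rule, and 7 of 7 further endothelial genes that entered were at least 2-fold lower, with a median log2 ratio of -3.45. FLT1 and KDR, receptors of vascular endothelial growth factor, had 2 and 4 UMIs in all members, and PECAM1, an adhesion molecule of vessels, had 6. TSPAN13, LIMCH1 and ADGRL4 had 1 UMI each in members, against 5146, 3242 and 2441 in the rest. CA4, a carbonic anhydrase of capillaries, stood at 29.4 CPM in members and 803 CPM in the rest, and EHD4 and PALMD had 3 and 2 UMIs in members. The rule removed barcodes with VWF or CDH5, so these low levels are a description.

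Markers of the contractile and pericyte lists were present. Among myoid and smooth muscle genes, 5 of 10 were at least 2-fold higher in members and none lower, with a median log2 ratio of 1.00. CALD1, caldesmon, was found in 274 of 300 members at 2650 CPM, against 721 CPM in the rest. ACTA2 stood at 1337 CPM in members and 667 CPM in the rest, but 170 members had none and 24 had 10 or more. In the 170 members without ACTA2 the median of the list was -0.71. ACTA2 is itself on the list and chose these barcodes, so that value is a description. Of 5 pericyte genes, 3 were higher, with a median log2 ratio of 1.48, which became -0.41 without clusters 0 and 3. Cluster 0 was left out as the one with the most RGS5-positive barcodes. RGS5 is on the pericyte list, so the second median is a description and nothing is read from the fall. GJC1, a connexin of vascular muscle, was found in 62 members, with a log2 ratio of 2.44, and COX4I2, a cytochrome oxidase subunit of pericytes, in 58, with 2.25.

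Markers of Leydig cells and other cell types were also counted. CYP11A1, HSD17B3 and NR5A1, which define Leydig cells, had 0 UMIs in members, and INSL3, their peptide hormone, had 11 UMIs in 9 members. LHCGR matched no symbol, and the whole list summed to 177 CPM in members and 216 CPM in the rest. Of 11 macrophage genes beyond those of the rule, CD163, CSF1R, CD14, TYROBP, LYZ and CD74 were at 0. The list summed to 448 CPM in members and 659 CPM in the rest. Nearly all of the members' sum came from AIF1, found in 116 members. These macrophage genes summed to 1301 CPM in spermatid-rich barcodes, against 234 CPM in KCNJ8-positive and 157 CPM in endothelial barcodes. Summed CPM in members was 5.89 for lymphocyte, 1.96 for mast cell, 13.7 for nerve and glia, 27.5 for adipocyte and 7.85 for red blood cell genes, against 22.8, 9.01, 5.59, 27.8 and 5.55 in the rest. Sertoli genes summed to 132 CPM in members and 126 CPM in the rest. Rete epithelium genes summed to 118 and 219 CPM, and lymphatic genes to 35.3 and 89.3 CPM. The Sertoli genes FSHR, FATE1 and INHA were at 0 in members. Of 3 Sertoli genes that entered, 1 was higher in members, with a log2 ratio of 4.53, and 1 was lower, at -1.16. Mesothelial genes summed to 15.7 CPM in members and 37.0 CPM in the rest. Spermatid transcripts were present at levels close to the rest, with 1731 CPM of round and 4780 CPM of elongating spermatid genes, against 2668 and 6303 CPM. HMGB4, a spermatid chromatin protein, was detected in 272 of 300 members, so these transcripts lay in nearly all member barcodes. Spermatocyte genes summed to 269 CPM in members and 416 CPM in the rest.

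Hormone receptor transcripts were sparse. ESR1, the main oestrogen receptor, had 1 UMI in members and 6 in other ZEA barcodes, too few for a comparison. Of 4 hormone receptor genes that entered, 2 were higher and 1 lower, with a median log2 ratio of 0.82.

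Among chemokines and cytokines, 2 of 5 genes were higher and 3 lower, with a median log2 ratio of -2.62. KITLG, the ligand of KIT, had 0 UMIs in members against 95.5 CPM in the rest, which on the floor of 3 UMIs per set is a log2 ratio of at most -4.02. CXCL12, a chemokine, and IL33 had 4 UMIs each in members, with log2 ratios of -3.47 and -2.62. CSF1, a growth factor of macrophages, was higher at 2.59 on 24 UMIs.

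Lists of stress genes differed in direction. Of 8 cytosolic heat shock genes, 7 were at least 2-fold lower and none higher, with a median log2 ratio of -1.10. The list summed to 4105 CPM in members, against 7206 CPM in the rest, 12962 CPM in endothelial and 1131 CPM in spermatid-rich barcodes. HSPA6 and HSPH1, inducible chaperones, had log2 ratios of -1.52 and -1.51. Immediate early genes gave 3 lower and 1 higher of 14, with a median of -0.61, and ATF3, a stress-induced transcription factor, had -1.56. The higher one was EGR1, at 1.26 on 29 UMIs. Genes of the unfolded protein response were level, with 1 of 13 higher and a median of 0.10, and that one was the disulphide isomerase PDIA3 at 1.10. Interferon genes gave 3 of 9 higher with a median of 0.15, led by IFI6 at 1376 CPM in members and 168 CPM in the rest. The interferon list summed to 2634.5 CPM in members, against 2468 in KCNJ8-positive, 1556 in endothelial and 715 CPM in ACTA2-high barcodes. Antioxidant genes gave 5 of 9 higher with a median of 1.02, and mitochondrially encoded genes 9 of 11 with a median of 1.14. Adhesion and cytoskeleton genes gave 7 of 14 higher with a median of 1.21, led by LGALS3 and by LGALS1 at 3.24. Adhesion genes summed to 7248 CPM in members, against 7430 in KCNJ8-positive, 7160 in endothelial and 11638 CPM in ACTA2-high barcodes. Mitochondrially encoded genes summed to 25208 CPM in members, against 39232, 16501 and 21422 CPM in those sets. Spermatid-rich barcodes had 534 CPM of adhesion and 2142 CPM of mitochondrially encoded genes. High sums of both were thus not particular to members. Fibroblast state genes gave 8 of 11 higher with a median of 3.33, led by MFAP5, PDGFRA, GSN and the mesenchymal transcription factor PRRX1, which had a log2 ratio of 4.89. Apoptosis genes gave 0 of 2 past 2-fold, and cell cycle genes 1 of 4.

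**Figure D3:**
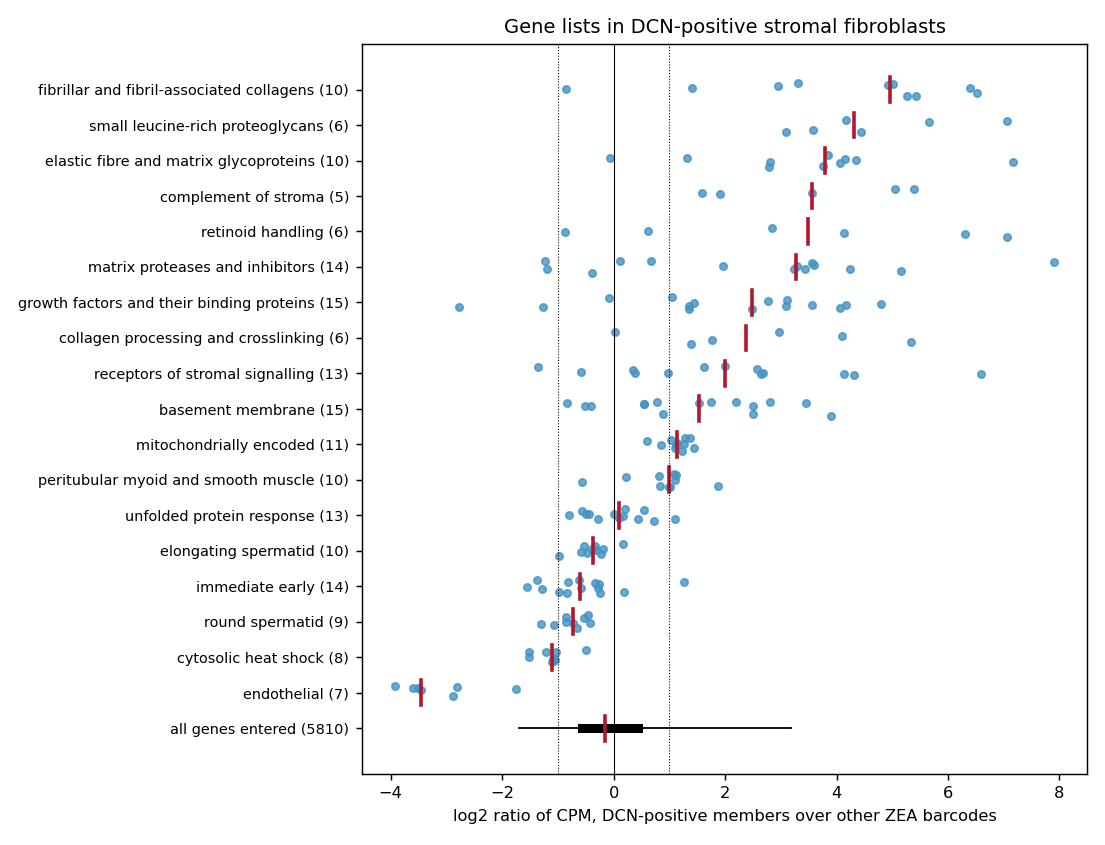
Log2 ratio of CPM of members over other ZEA barcodes (x axis) for the genes of 18 lists (rows, number of genes entered in brackets, rule genes left out). Each dot is a gene, red bars are medians, dotted lines mark 2-fold, and in the last row the thick and thin bars span the middle 50% and 95% of all genes entered. Collagen genes had a median of 4.96 and heat shock genes of -1.10, against -0.16 over all genes.

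The KCNJ8-positive set, which is mural, was the 91 ZEA barcodes with at least 2 UMIs of the pericyte channel gene KCNJ8. Of 8 collagen genes, 7 were at least 2-fold higher in members and 1 lower, and of 9 contractile genes 3 were lower and none higher. MGP stood at 6726 CPM in members and 16848 CPM in KCNJ8-positive barcodes. Of 2302 genes that entered, 319 were at least 2-fold higher in members (13.9%) and 108 lower (4.69%). Their median log2 ratio was 0.25, and after scaling by the median of gene ratios the counts were 190 and 170. Without clusters 0 and 3 they were 175 and 87, where the number of genes that entered is not given. APOA1 stood at 10253 CPM in members and 120 CPM in KCNJ8-positive barcodes. IGF2, insulin-like growth factor 2, stood at 1127 CPM in members on 574 UMIs, against 18.9 CPM on 3 UMIs, a log2 ratio of 5.89 (4.34 to 8.18). MFAP5 had 0 UMIs in KCNJ8-positive barcodes, so its log2 ratio was at least 5.84 on the floor of 3 UMIs per set. APOD, FGL2 and CYP26B1 had 4, 2 and 2 UMIs there. Higher in KCNJ8-positive barcodes were POSTN, periostin, at 39.3 CPM in members against 1092 CPM, and HIGD1B and RGS5, pericyte genes, at 114 and 179 CPM in members against 2001 and 2190 CPM. GUCY1B1, a subunit of the nitric oxide receptor, had a log2 ratio of -3.37 and THBS4, thrombospondin 4, of -2.96. KCNJ8 itself was set by the rule, and the marker counts that define the sets also make this comparison and those below descriptions.

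Collagens and proteoglycans parted in this comparison. Of 8 collagen genes that entered, 7 were at least 2-fold higher in members than in KCNJ8-positive barcodes and 1 lower, with a median log2 ratio of 2.61. Of 6 proteoglycan genes, 2 were higher and 1 lower, with a median of 0.56, and OGN stood at 430 and 290 CPM. All 6 pericyte genes were lower, with a median of -3.23, and 7 of 8 immediate early genes were lower, with a median of -1.45.

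The ACTA2-high set, 404 ZEA barcodes with at least 10 ACTA2 UMIs and at most 2 of DCN, held the contractile cells. Of 4045 genes that entered, 323 were at least 2-fold higher in members (7.99%) and 345 lower (8.53%), with a median log2 ratio of 0.14, and after the same scaling 259 and 410. PLAC9, a small secreted protein, stood at 601 CPM in members on 306 UMIs, against 2.23 CPM on 2 UMIs, a log2 ratio of 8.08 (6.21 to 11.1). The next were DCN, which chose the sets, MFAP5 at 7.13, APOA1 at 6.76, PDGFRA at 5.85 and GSTA1 at 5.85. At the other end RGS7BP and PARM1 had 1 and 3 UMIs in members. DAPL1 stood at 21.6 CPM in members and 677 CPM in ACTA2-high barcodes, RCAN2, a calcineurin regulator, at 19.6 and 613 CPM, and CSRP2, a muscle LIM protein, at 27.5 and 747 CPM. KITLG had 0 UMIs in members and 127 UMIs in ACTA2-high barcodes. Myoid genes were lower in members for 12 of 13, with a median of -2.84, and all 5 complement genes and all 4 retinoid genes were higher, with medians of 4.36 and 4.02.

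Endothelial barcodes, 1696 with at least 2 UMIs of VWF and CDH5 together, were deeper, at a median of 3470 UMIs. Of 6703 genes that entered, 1491 were at least 2-fold higher in members (22.2%) and 1055 lower (15.7%), with a median log2 ratio of 0.14. Scaled by the median of gene ratios, 1238 were higher and 1268 lower. RBP4 had 132 UMIs in members and 5 in endothelial barcodes, a log2 ratio of 8.55 (7.29 to 10.2). APOD, COL1A1, COL1A2 and CYP26B1 followed at 7.84, 7.40, 7.37 and 7.34, beside DCN. The lowest genes were again TSPAN13, LIMCH1, ADGRL4, the rule genes and CA4, which stood at 29.4 CPM in members and 2052 CPM in endothelial barcodes. The abundant genes APOA1 and CLEC3B had smaller ratios, of 1.88 and 0.29, and none of 11 mitochondrially encoded genes passed 2-fold. With every barcode thinned to 500 UMIs, APOA1 was detected in 75.0% of members and 53.4% of endothelial barcodes (83.7 and 83.1% unthinned), and CLEC3B in 74.0 and 83.1% (87.3 and 98.0% unthinned).

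Members were not uniform. Leiden clustering of the 300 barcodes gave 4 clusters, called by number, and their leading genes define them and are descriptions. Cluster 1 had 113 barcodes, cluster 2 had 115, cluster 0 had 46 and cluster 3 had 26. At least 2 of the 5 fibroblast genes were found in 93.8% of cluster 1 and 93.0% of cluster 2, against 52.2% of cluster 0 and 76.9% of cluster 3. Median DCN counts were 8, 14, 4 and 6.5 in clusters 1, 2, 0 and 3.

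Clusters 1 and 2 held 228 members and differed in their matrix and secreted genes. Cluster 1 was led by PTN, the growth factor pleiotrophin, at 978 CPM against 339 CPM in the other members, followed by BLVRB, GSTA1, FKBP11 and OGN. OGN stood at 710 CPM in cluster 1 and 296 CPM in the other members. Cluster 2 was led by COL28A1, ABCA10, the stem and stromal cell antigen CD34, the WNT modulator SFRP2 and KLF3. CD34 stood at 314 CPM in cluster 2 and 65.2 CPM in the other members, and SFRP2 at 232 and 50.4 CPM. Chosen after their values were seen, S100A4, a calcium-binding protein of motile fibroblasts, stood at 5458 CPM in cluster 2 and 1198 CPM in the other members, and MFAP5 at 2040 CPM in cluster 2 and 935 CPM in cluster 1. ACTA2 was at 0 in 86 of 115 barcodes of cluster 2 and in 54 of 113 of cluster 1. Both clusters carried COL1A1, at 3455 CPM in cluster 1 and 3947 CPM in cluster 2.

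Clusters 0 and 3 carried genes of other cell types. Cluster 0 was led by RGS5, MCAM, ADAMTS4, HIGD1B and ACTG2, which are mural and contractile genes apart from the protease gene ADAMTS4. RGS5 was found in 26 of its 46 barcodes, and the summed level of myoid genes was 19039 CPM, against 6242 in cluster 1, 3743 in cluster 2 and 1358 in cluster 3. Pericyte genes summed to 2887 CPM in cluster 0 and to between 232 and 376 CPM in the others, and immediate early genes to 11999 CPM against 2671, 2220 and 1049 CPM. None of the 5 fibroblast genes was found in 11 barcodes of cluster 0. Cluster 3 was led by TSSK4, a kinase of spermatids, C9orf135, CYP51A1, TMIGD3 and SKA3, and spermatid genes took a median of 1.16% of its UMIs, against 0.482 to 0.569% in the others. It gave 90551 of the members' 509394 UMIs. Without both clusters the members made up 2.59% of ZEA barcodes. The part of doublets and of free RNA in these clusters was not tested.

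**Figure D4:**
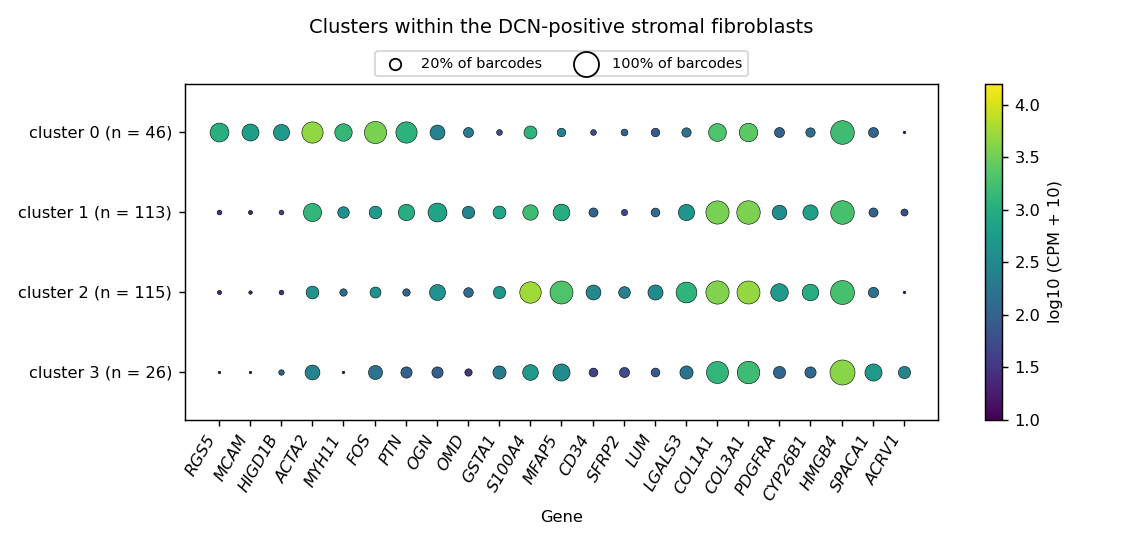
Genes (x axis) in the 4 clusters of members (rows, number of barcodes in brackets). Dot area is the share of barcodes with at least 1 UMI and colour is log10 of CPM + 10. RGS5 stood at 1048 CPM in cluster 0, PTN at 978 CPM in cluster 1, S100A4 at 5458 CPM in cluster 2 and HMGB4 at 4274 CPM in cluster 3.

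The same rule in the control library found 10 of 7030 barcodes, or 0.142% (0.0682 to 0.261%, Clopper-Pearson), against 3.41% (3.04 to 3.81%) in the ZEA library. The ratio of the shares was 23.9 (12.8 to 50.4). It compares these 2 libraries, not the treatments. Barcodes outside the rule had a median of 1400 UMIs in the ZEA library and 4270 in the control library, and spermatid genes took a median of 1.02% of UMIs in other ZEA barcodes and 1.78% in other control barcodes. DCN outside the rule was rare in the control library too, with 16 UMIs in 15 of its other 7020 barcodes.

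The 10 control barcodes carried fibroblast genes other than DCN. Their DCN counts were 3, 3, 5, 6, 7, 8, 12, 17, 17 and 29, and COL1A1 was found in all 10, with 1 to 8 UMIs. At least 2 of the 5 fibroblast genes were found in all 10, MFAP5 and PDGFRA in 6 each, and LUM in none. One barcode gave 7289 of their 22454 UMIs (32.5%), so sums are also given without it. ACTA2 was uneven, at 15, 33 and 50 UMIs in 3 barcodes, at 1 in 2 and at 0 in 5.

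Collagen genes and MGP gave larger sums in ZEA members than in control members, on few control counts. Of 1935 genes that entered, 357 were at least 2-fold higher in ZEA members (18.4%) and 258 lower (13.3%). Their median log2 ratio was 0.00. Without the deepest control barcode 274 were higher and 206 lower, where the number of genes that entered is not given. COL1A1 stood at 2990 CPM in ZEA members and 1470 CPM (1012 to 2064) in control members, a log2 ratio of 1.02 (0.53 to 1.57), which was 0.55 without that barcode. COL3A1 stood at 3494 and 2049 CPM, with 0.77 (0.35 to 1.23). MGP stood at 6726 CPM in ZEA members and 1381 CPM in control members, with 2.28 (1.78 to 2.84), and 2.03 without the deepest barcode. APOE stood at 8679 and 4676 CPM, with 0.89 (0.61 to 1.19), and 0.37 without the deepest barcode. MFAP5, PDGFRA and APOD had intervals that spanned 0, at 0.29 (-0.35 to 1.01), -0.15 (-1.16 to 1.09) and 0.11 (-0.41 to 0.68).

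Lower in ZEA members, and among list genes chosen after their values were seen, were ACTA2 at 1337 CPM against 4454 CPM in control members and GSTM3 at 4478 against 8729 CPM. The antioxidant list that holds GSTM3 was also lower outside the members, at 2396 CPM in other ZEA and 4577 CPM in other control barcodes. The myoid list that holds ACTA2 went the other way there, at 2883 and 200 CPM. The log2 ratio of CYP26B1 was -0.74 (-1.38 to -0.03), and -1.31 without the deepest barcode. The 3 control barcodes with 50, 33 and 15 ACTA2 UMIs held 5, 8 and 6 of its 21 control UMIs. By the rule on size the lowest were SPACA9, GSG1, ECRG4, FAIM2, SMKR1 and F2. GSG1, a germ cell gene, stood at 946 CPM in ZEA members and 4854 CPM in control members, a log2 ratio of -2.36, and at 1330 CPM in other ZEA barcodes and 5942 CPM in other control barcodes. SPACA9, FAIM2, SMKR1 and F2 were likewise at 1290, 979, 883 and 1035 CPM in other control barcodes, against 241, 491, 382 and 348 CPM in other ZEA barcodes. These 5 genes therefore differed between the libraries in the same direction outside the members. FAIM2 came from one barcode for 23 of its 25 control UMIs, and its log2 ratio was -2.23 with that barcode and 0.85 without it. ECRG4, a secreted peptide precursor, did not share that background, at 430 CPM in ZEA members and 2138 CPM in control members, against 30.0 CPM in other ZEA barcodes and 0.132 CPM in other control barcodes. Of its 48 control UMIs, 30 came from one barcode, and 5 of the 10 had any. The highest by size were IGFBP2, ATRX, GNG11, AKAP9, ANKRD12 and UTRN, with 1 control UMI each. IGFBP2 had a log2 ratio of 3.18 (0.68 to 8.49). Of its 205 UMIs in ZEA members, 123 came from the 46 barcodes of cluster 0, at 1498 CPM there against 370 CPM in cluster 1.

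**Figure D5:**
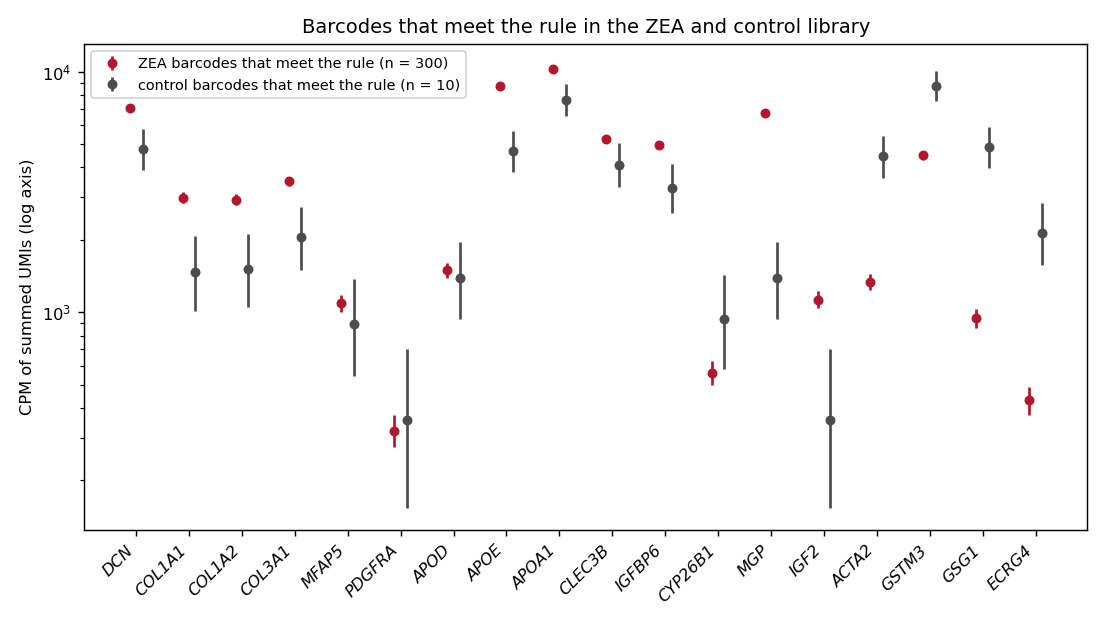
Level of 18 genes (x axis) in the barcodes that meet the rule in the ZEA library (n = 300) and the control library (n = 10), as CPM of summed UMIs on a log axis (y axis). Points are sums and bars are exact 95% Poisson intervals. MGP stood at 6726 CPM in ZEA members and 1381 CPM in control members, and GSG1 at 946 and 4854 CPM.

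Lists were set side by side in the same way. Collagen genes summed to 10407 CPM in ZEA members and 5745 CPM in control members, with 2 of 7 genes at least 2-fold higher and none lower, beside 18.4% higher and 13.3% lower over all genes. Elastic fibre and glycoprotein genes summed to 10514 and 3964 CPM, with 3 of 6 higher, and MGP gave 6726 and 1381 CPM of those sums. Fibroblast state genes summed to 14321 and 10822 CPM, with 0 of 8 past 2-fold, and complement genes to 1431 and 1470 CPM. Antioxidant genes summed to 6802 CPM in ZEA members and 10110 CPM in control members, of which GSTM3 gave 4478 and 8729 CPM, and by gene 1 of 6 was higher and none lower, with a median log2 ratio of 0.66. Heat shock genes summed to 4105 and 2717 CPM. Round spermatid genes summed to 1731 and 3117 CPM. In other ZEA and other control barcodes, heat shock genes summed to 7206 and 2408 CPM and round spermatid genes to 2668 and 4890 CPM. Antioxidant genes summed there to 2396 and 4577 CPM, collagen genes to 314 and 129 CPM and complement genes to 123 and 67.0 CPM. Elastic fibre and fibroblast state genes summed there to 2314 and 29.5 CPM and to 4690 and 21.1 CPM. Apart from complement genes, these sums differed in the same direction outside the members.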

How the data were processed

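Single-cell RNA from 2 sheep testis libraries, ZEA0.75 and control, was analysed, with 1 library per group. The authors deposited matrices of whole UMI counts for each gene in each barcode, without normalization, and no source says how barcodes were chosen. The submitters' processing notes list STAR and Cell Ranger 3.1.0, but per the file headers the control matrix came from Cell Ranger 5.0.0 and the ZEA matrix from 3.1.0. Software version and group thus cannot be told apart. No genome build or annotation is stated. The 2 matrices have the same 27054 genes, 10636 of them without a symbol. These were counted in sums and are not named.

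Barcodes with at least 500 UMIs were kept, which in these files is every barcode. No doublet caller was run; the top 5% of barcodes by UMIs were left out as an alternative. UMIs were summed per set and divided by the set's total to give CPM, with exact Poisson intervals. Log2 ratios have exact conditional binomial intervals and shares Clopper-Pearson intervals, all at 95% and covering counting error only. A gene entered with at least 50 UMIs over both sums and detection in at least 5% of either set; 2-fold was the threshold. A count of 0 was set to a floor of 3 UMIs per set. Spermatid-rich barcodes had at least 1.5% of UMIs from the spermatid lists, a cut chosen after the data were seen. They had no UMIs of KCNJ8, VWF, CDH5 or C1Q and were not members. Clustering within members used 1000 variable genes, 15 principal components, 15 neighbours and Leiden resolution 0.5 (scanpy 1.11.5, igraph 0.11.9, seed 0); resolution 1 was an alternative. Thinning drew 500 UMIs per barcode. The ratio code was tested on simulated data.

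Named genes were the 14 highest and 8 lowest log2 ratios against other ZEA barcodes (at least 200 UMIs), the 10 most abundant, 2 to 4 genes of each list with the largest ratios, the 6 highest and lowest against each other set (at least 100 UMIs) and the 5 leading genes of each cluster, with DCN, the rule genes, ESR1, PDGFRA, INSL3 and LHCGR; others are said to be chosen after their values were seen or stand as exceptions or context of a list. Some genes that the rule names are not reported here. The members, the 39 gene lists and the comparisons were chosen with earlier results of these data known.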

Additional observations from a re-analysis of the deposited data

How the results depend on the processing

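No paired analysis was possible because each group is 1 library. The share of ZEA barcodes that met the rule was 4.10% at 2 or more DCN UMIs, 2.52% at 5 or more, 4.48% among barcodes with at least 1000 UMIs and 2.59% without clusters 0 and 3, against 3.41% as given. Thinning to 500 UMIs, which leaves fewer genes to enter, gave 354 genes higher than in other ZEA barcodes, 76 higher and 37 lower than in KCNJ8-positive, 106 higher and 145 lower than in ACTA2-high, 365 higher and 294 lower than in endothelial barcodes, and 51 higher and 53 lower in ZEA than in control members. Against other ZEA barcodes, 1366 genes were higher when barcodes with 5 or more spermatid UMIs were left out of the rest. Entry at 10 UMIs gave 2565 higher and 1304 lower, equal weight per barcode 1066 lower, and leaving out clusters 0 and 3 gave 1260 lower. Against KCNJ8-positive barcodes, scaling by the median of gene ratios gave 190 higher and 170 lower, and leaving out clusters 0 and 3 gave 175 higher. Equal weight gave 939 higher than in endothelial barcodes. Settings that change the barcodes, the UMIs or the entry rule can change how many genes enter. Those totals are not given, so such counts cannot be compared as shares. Of 34 list medians under all alternatives, 362 of 436 values moved little, 68 moved and 6 turned sign: chemokines 0.38 (entry at 10 UMIs), Leydig genes 0.57 (1000 UMIs) and 0.22 (entry at 10 UMIs), myoid genes -0.71 (members without ACTA2), and pericyte genes -0.29 (5 or more DCN UMIs) and -0.41 (without clusters 0 and 3). Entry at 10 UMIs tests more genes. Members without ACTA2 were chosen by a gene of the myoid list, and cluster 0 was left out for RGS5, a gene of the pericyte list. The sign changes under those alternatives are thus descriptions. For the other values the cause was not tested. Of 31 named genes, 73 of 403 values moved and 0 turned sign. Leiden resolution 1 gave 6 clusters. The alternatives without clusters 0 and 3 and without the deepest control barcode were chosen after seeing the data. Genes with few UMIs, such as ESR1, and the 10 control barcodes limit what depth can show.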
